A study of Homo sapiens with 6 samples.

Results

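Chaperonins are barrel-shaped complexes that fold other proteins inside a closed chamber. The chaperonin of the cytosol, CCT (also called TRiC), is built of rings in which 8 related but different subunits each hold a fixed place, and actin and the tubulins are its best known clients. The chaperonin of the mitochondrial matrix is built of one protein, HSP60 (gene HSPD1), closed by a lid of HSP10 (gene HSPE1). The genes described here are the 8 CCT subunit genes TCP1, CCT2, CCT3, CCT4, CCT5, CCT6A, CCT7 and CCT8 and the 2 mitochondrial chaperonin genes HSPD1 and HSPE1, chosen by name and not by their values. All probe sets whose annotation names one of these 10 genes were taken, which gave 21 of the 54675 probe sets of the array.

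The samples came from tumours that HT-29 cells, an established human line of colorectal adenocarcinoma, formed in both femoral regions of Balb/c (nu/nu) mice, which were 6 to 8 weeks old at injection and lack mature T cells. The treated tumours were heated on day 18 for 30 min by an electromagnetic field (modulated electro-hyperthermia) and taken 4 h later. The opposite-side tumours are labelled as untreated and as the opposite side of the treated one, and the control tumours are labelled only as control. Each of the 3 groups was 1 pool of RNA from macrodissected tissue, hybridised to 2 arrays that the labels call technical replicates. The spread between animals was therefore not measured, no test between conditions was possible, and each SD given here describes the 2 arrays of a pool.

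Values are log2 expression levels as deposited. A probe set or gene is called detected where a pool mean reaches 5, and a difference is the difference of 2 pool means. The size of a difference was judged by a pair of rules, a minimum of 1 (2-fold) and a smaller one of 0.3 (1.23-fold), both with the requirement that all 4 array-to-array differences share a sign and that both arrays of the higher pool reach 5. Over all 12992 detected probe sets the 2 arrays of a pool differed by a median of 0.050 to 0.059, so that 0.3 lies well above array error but says nothing of animal-to-animal error. Spike-in scaling means that each array was shifted until RNAs added in fixed amounts had a common median. A second spike-in scaling, chosen after seeing the data, used the median of the spike-in differences, each spike-in centred on its own mean. The first moved the median of all detected genes by -0.01 in treated minus control, -0.19 in treated minus opposite and 0.17 in opposite minus control, and the second by -0.13, -0.32 and 0.19. The shares of all detected genes given below are for the values as deposited. A count under a spike-in scaling has no such share beside it. Such a count includes this shift of all genes and is no result about the listed genes alone. Levels of different probe sets were not compared with each other, since probes differ in how strongly they bind.

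Of the 21 chaperonin probe sets 15 were detected and covered all 10 genes, and 6 lay below 5 in every pool. The 3 TCP1 probe sets are also annotated with SNORA29, a small nucleolar RNA, and no TCP1 probe set was free of it. The annotation of the human genome lists 22 pseudogenes named for HSPD1 and 28 for HSPE1, and 61 for all 10 genes, and 9 of the 15 detected probe sets carry the suffix _s_at, which marks probes that match several transcripts. Signal from such copies cannot be told apart from that of the genes.

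The regions around the annotated transcription starts are shown first for the mitochondrial pair and for the CCT subunits with the highest and the lowest difference between treated and control, TCP1 and CCT7, since the heat shock factor HSF1 binds inverted repeats of the letters GAA. They are RefSeq sequences of GRCh38.p14, from 250 bases before to 50 bases after a start, read 5′ to 3′ on the strand of the gene. Windows were found for 9 of the 10 genes, and CCT6A had none. Capitals mark the letters of the inverted repeats GAANNTTC and TTCNNGAA, each of which reads the same on both strands, and of their 3-unit forms, in which GAANNTTC is followed directly by NNGAA or TTCNNGAA by NNTTC. The 3-unit forms contain the shorter ones and are each other's reverse complement.
HSPD1, inner start, chr2:197499791-197500090, minus strand: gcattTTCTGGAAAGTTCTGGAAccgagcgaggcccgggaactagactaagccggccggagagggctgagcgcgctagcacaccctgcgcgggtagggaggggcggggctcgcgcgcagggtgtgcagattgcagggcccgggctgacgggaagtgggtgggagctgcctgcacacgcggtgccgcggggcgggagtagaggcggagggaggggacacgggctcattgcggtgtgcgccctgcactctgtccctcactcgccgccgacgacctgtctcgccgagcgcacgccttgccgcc
HSPE1, chr2:197500129-197500428, plus strand: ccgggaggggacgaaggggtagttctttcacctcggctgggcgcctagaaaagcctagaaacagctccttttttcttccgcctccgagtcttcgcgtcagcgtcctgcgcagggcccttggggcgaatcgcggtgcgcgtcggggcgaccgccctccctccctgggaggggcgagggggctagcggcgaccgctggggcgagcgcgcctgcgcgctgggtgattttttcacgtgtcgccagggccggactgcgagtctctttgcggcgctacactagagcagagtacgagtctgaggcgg
TCP1, chr6:159789553-159789852, minus strand: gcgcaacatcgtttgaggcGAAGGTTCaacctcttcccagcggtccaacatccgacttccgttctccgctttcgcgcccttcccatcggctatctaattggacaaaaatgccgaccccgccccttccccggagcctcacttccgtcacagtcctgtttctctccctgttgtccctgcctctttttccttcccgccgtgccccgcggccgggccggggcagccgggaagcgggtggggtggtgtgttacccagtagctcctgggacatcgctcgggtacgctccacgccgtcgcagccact
CCT7, chr2:73234058-73234357, plus strand: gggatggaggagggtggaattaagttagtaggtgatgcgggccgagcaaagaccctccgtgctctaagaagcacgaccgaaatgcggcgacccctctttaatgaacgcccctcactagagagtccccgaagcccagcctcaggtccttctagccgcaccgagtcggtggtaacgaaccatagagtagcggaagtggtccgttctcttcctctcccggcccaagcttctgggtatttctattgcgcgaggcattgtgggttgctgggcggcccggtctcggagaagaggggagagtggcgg

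HSPD1 and HSPE1 lie head to head on chromosome 2, and the annotated HSPE1 start is 105 bases from the outer HSPD1 start. Their windows overlap there by 204 bases, and neither the HSPE1 window nor the outer HSPD1 window holds a repeat. The inner HSPD1 start lies 434 bases further into HSPD1, and its window holds a run of 18 bases, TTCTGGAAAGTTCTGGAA, made of 4 units in a row. That run lies between the 2 HSPD1 starts, 189 bases after the outer one, and 294 to 311 bases upstream of the HSPE1 start, just outside the HSPE1 window. Of all 35116 promoter windows in the table, 13.5% held at least 1 of the 8-letter repeats, 0.49% a 3-unit form and 0.0256% (9 windows) the 4-unit form, in which TTCNNGAA, NN and TTCNNGAA follow each other. TCP1 held the single repeat GAAGGTTC, CCT2 held GAAATTTC in 1 of 2 windows and CCT4 held TTCTGGAA in 1 of 2 windows, while the windows of CCT3, CCT5, CCT7 and CCT8 held none. Among 6 strongly heat-inducible genes set beside them, HSPA6 and HSP90AA1 held a 3-unit form, DNAJB1 and HSPB1 an 8-letter repeat, and HSPH1 and BAG3 none. A match of letters is a description of the sequence, and whether HSF1 was bound there was not measured.

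As deposited, the mitochondrial pair stood higher in the treated pool than in both other pools (HSPE1 stood at -0.04 against the opposite side, with overlapping arrays, under the second spike-in scaling), and by about the same amount against control for both genes. HSPD1, the folding chamber, was at 12.67 and 12.67 on the treated arrays, at 12.28 and 12.30 on the opposite-side arrays and at 12.21 and 12.22 on the control arrays. HSPE1, the lid, was at 9.83 and 9.93 on the treated arrays, at 9.62 and 9.59 on the opposite-side arrays and at 9.42 and 9.42 on the control arrays. For both genes the treated arrays as deposited lay above all others without overlap, and the opposite-side arrays lay between the treated and the control arrays. HSPD1 differed by 0.45 (1.37-fold) between the treated and the control pool, and HSPE1 by 0.46 (1.37-fold). Both passed the smaller rule and neither passed the rule of 1. With the second spike-in scaling each stood at 0.33, which still passes. Of 7204 detected genes, 5.29% had a larger treated minus control difference than HSPD1 and 5.18% a larger one than HSPE1. The ratio of HSPD1 to HSPE1 differed by -0.01 on the log2 scale between the treated and the control pool.

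Against the opposite side HSPD1 was 0.38 higher in the treated pool and passed the smaller rule, and HSPE1 was 0.27 higher and did not, and with the spike-in scaling the values were 0.19 and 0.08, with the second one 0.06 and -0.04, none of which passes. Leaving out single arrays gave 0.22 to 0.33 for the HSPE1 difference, and the 0.33, found without the first treated array, passes. The opposite-side pool exceeded the control pool by 0.07 for HSPD1 and by 0.18 for HSPE1, with no overlap of arrays. The second detected HSPD1 probe set, 200806_s_at, gave 0.39 for treated minus control and 0.47 for treated minus opposite, but -0.08 for opposite minus control. The probe sets of HSPD1 thus both put the treated pool highest and, as deposited, gave opposite orders for the other 2 pools, whereas with the spike-in scaling both were higher on the opposite side than in control, at 0.25 and 0.10. Another, 241716_at, lay below 5 in all pools, at 4.09 ± 0.436 in the treated, 2.93 ± 0.083 in the opposite-side and 3.57 ± 0.255 in the control pool (SD, 2 arrays each), and the remaining 2 were at 2.37, the lowest value deposited, on every array.

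**Figure D1:**
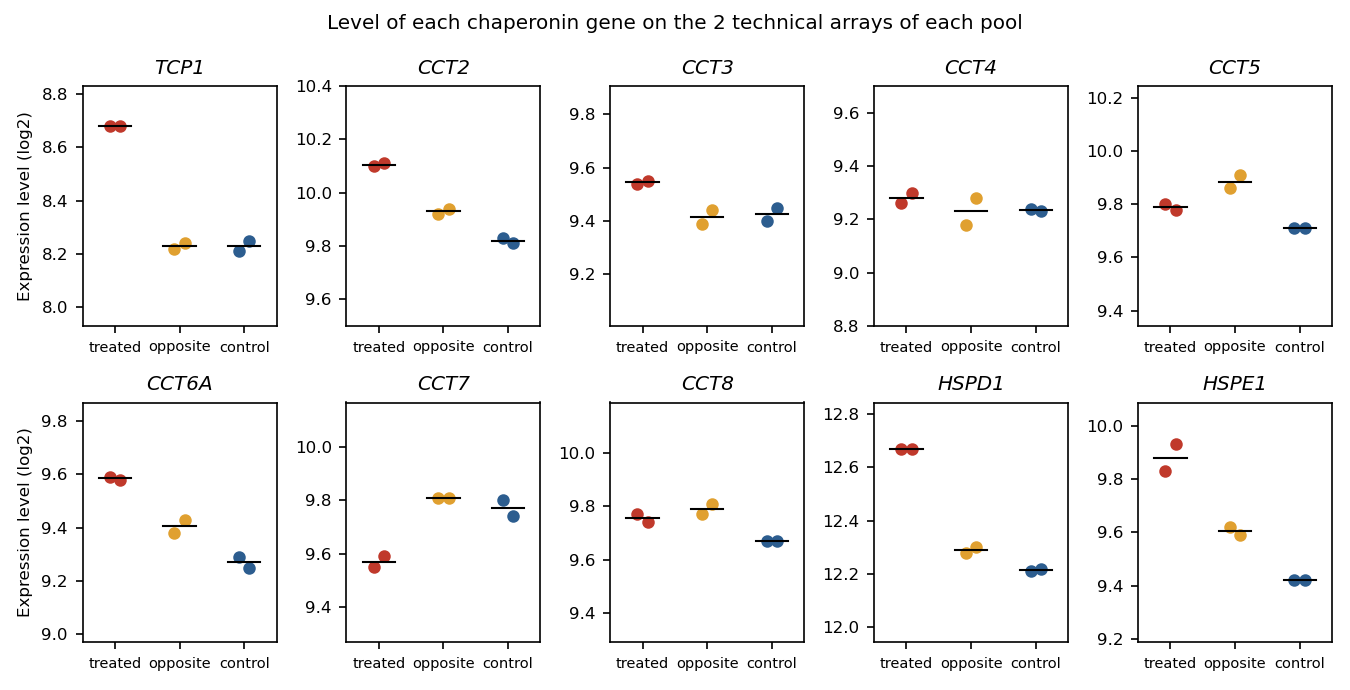
Expression level (log2, y axis) of the 10 chaperonin genes on the 2 arrays (points) of the treated, opposite-side and control pools, with the pool mean as a line; each panel spans the same range of 0.9. TCP1, HSPD1 and HSPE1 stand 0.45 to 0.46 above control in the treated pool, whereas CCT7 lies 0.20 below it (-0.20).

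The CCT subunits did not differ by a common amount. In the treated pool 7 of the 8 stood above control without overlap of arrays and 1 stood below, where 34.7% of all detected genes stood above in this way and 40.5% below. The differences ran from -0.20 for CCT7 to 0.45 for TCP1, a span of 0.65, and the median of the 8 was 0.10, beside -0.02 over all detected genes. The quartiles of all detected genes were -0.17 and 0.14, and 4 of the 8 subunits lay between them. The smaller rule was passed by 2 of 8 subunits, TCP1 and CCT6A, both higher, while 11.5% of detected genes passed it as higher and 11.4% as lower. No subunit passed the rule of 1, which 0.625% of detected genes passed as higher and 0.0972% as lower. Quantile normalization left 6 subunits above control, 1 below and 1 with overlapping arrays. The second spike-in scaling left 3 above (TCP1, CCT2 and CCT6A), 4 below and 1 with overlapping arrays, with a median of -0.02, and there TCP1 passed the smaller rule as higher (0.32) and CCT7 as lower (-0.33), while CCT6A at 0.19 did not pass.

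TCP1, the alpha subunit, had the largest difference of the 8 subunits. It was at 8.68 and 8.68 on the treated arrays, 8.22 and 8.24 on the opposite-side arrays and 8.21 and 8.25 on the control arrays. The treated arrays lay far above the rest, and the arrays of the other 2 pools overlapped. The difference was 0.45 against each of them (1.36-fold over control, 1.37-fold over the opposite side), and the opposite-side and control pools differed by 0.00. The other TCP1 probe sets were dimmer: 222011_s_at differed by 0.37 from control and 0.29 from the opposite side, and 222010_at by 0.18, with overlapping arrays, and 0.23.

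CCT6A, the zeta subunit, and CCT2, the beta subunit, followed. CCT6A was at 9.59 and 9.58 on the treated, 9.38 and 9.43 on the opposite-side and 9.29 and 9.25 on the control arrays. CCT2 was at 10.10 and 10.11 on the treated, 9.92 and 9.94 on the opposite-side and 9.83 and 9.81 on the control arrays. As deposited, both genes followed the order treated, opposite side, control without overlap, and with the spike-in scaling both stood 0.01 below the opposite side (-0.01), with overlapping arrays, and with the second one at -0.14. CCT6A differed by 0.31 between treated and control, just inside the smaller rule, and by 0.29 without the second control array, just outside it. CCT2 differed by 0.28, also just outside. The other probe set of each gene went another way: 201326_at of CCT6A differed by -0.10 between treated and control, with overlapping arrays, and 201946_s_at of CCT2 differed by 0.07 between treated and control but stood highest in the opposite-side pool, 0.41 above control.

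CCT3, the gamma subunit, was at 9.54 and 9.55 on the treated arrays, at 9.39 and 9.44 on the opposite-side arrays and at 9.40 and 9.45 on the control arrays. Its treated arrays lay above the rest by 0.12 against control and 0.13 against the opposite side, but the value against the opposite side was -0.06 with the spike-in scaling, and the second scaling gave 0.00 and -0.18. CCT4, the delta subunit, was at 9.26 and 9.30 on the treated, 9.18 and 9.28 on the opposite-side and 9.24 and 9.23 on the control arrays. Of the 8 subunits it had the smallest absolute difference between treated and control as deposited, 0.04 (-0.08 with the second spike-in scaling), and its treated and opposite-side arrays overlapped as deposited, with a difference of 0.06 that was -0.13 with the spike-in scaling.

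CCT5 and CCT8, the epsilon and theta subunits, stood highest in the opposite-side pool and not in the treated one. CCT5 was at 9.80 and 9.78 on the treated, 9.86 and 9.91 on the opposite-side and 9.71 and 9.71 on the control arrays. CCT8 was at 9.77 and 9.74 on the treated, 9.77 and 9.81 on the opposite-side and 9.67 and 9.67 on the control arrays. As deposited the treated pool exceeded the control pool by 0.08 for CCT5 and 0.09 for CCT8, which became -0.05 and -0.04 with the second spike-in scaling, and was below the opposite-side pool by -0.09 and -0.04. The opposite-side pool exceeded the control pool by 0.17 for CCT5 and 0.12 for CCT8.

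CCT7, the eta subunit, was the only one of the 8 that stood below control in the treated pool as deposited. It was at 9.55 and 9.59 on the treated arrays, at 9.81 and 9.81 on the opposite-side arrays and at 9.80 and 9.74 on the control arrays. The treated arrays lay below all others, by -0.20 against control and -0.24 against the opposite side, and neither difference reached 0.3 as deposited. With the spike-in scaling the value against the opposite side was -0.43, which passed the smaller rule. With the second one CCT7 stood at -0.33 against control and -0.56 against the opposite side, which both pass. There CCT4 (-0.08), CCT5 (-0.05) and CCT8 (-0.04) also stood below control. CCT7 has 1 probe set on the array, so no second one was there to set beside it. Of the detected genes, 20.5% had a lower treated minus control difference than CCT7.

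**Figure D2:**
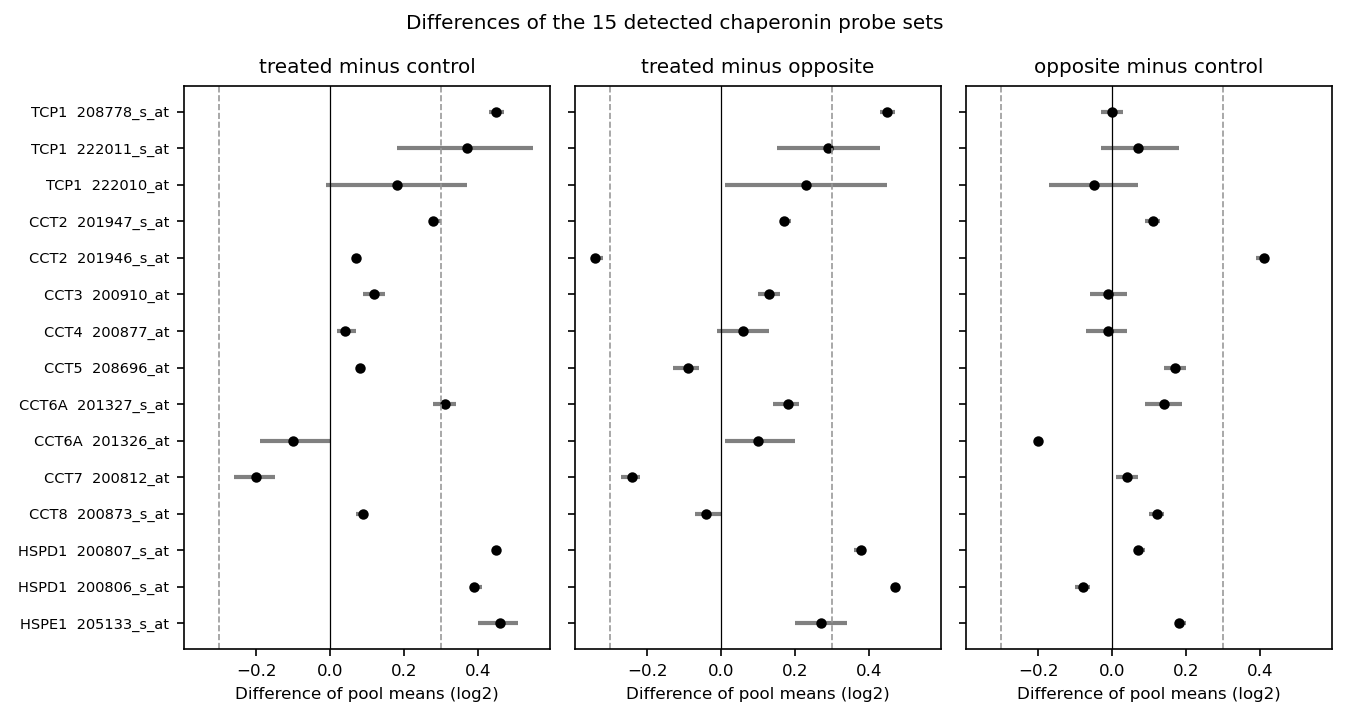
Difference of pool means (log2, x axis; black points) for the 15 detected probe sets of the chaperonin genes in each of the 3 comparisons, with grey bars from the lowest to the highest of the 4 array-to-array differences and dashed lines at the smaller minimum of 0.3. In treated minus control 6 probe sets pass 0.3, all higher (TCP1, HSPD1, HSPE1 and CCT6A), while 201946_s_at of CCT2 passes as lower in treated minus opposite. With arrays scaled to a common spike-in median every point moves by -0.19 in the middle panel and by about 0.17 in the right one, and with the second scaling 3 pass as higher and 1 as lower in the left panel.

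Counted by probe set, 6 of the 15 detected chaperonin probe sets passed the smaller rule as higher in treated minus control and 0 as lower, where 11.4% of all 12835 detected probe sets passed as higher and 12.9% as lower. In treated minus opposite 3 passed as higher and 1 as lower, where 11.2% and 8.29% of probe sets did, and with the spike-in scaling 0 passed as higher and 2 as lower. In opposite minus control 1 passed as higher and 0 as lower, where 9.63% and 13.7% did, and with the spike-in scaling 4 passed as higher and 0 as lower. The second scaling gave 3 higher and 1 lower in treated minus control, 0 and 4 in treated minus opposite, and 6 and 0 in opposite minus control. Both scalings shift all probe sets of a comparison alike, so these changes in the counts are not particular to the chaperonins. 

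Whether the subunits kept step with each other was also read within each array, since a ratio between 2 genes of one array does not change when a whole array is shifted. The ratio of TCP1 to CCT7 was 1.57 times that of control and 1.62 times that of the opposite side in the treated pool, and it was 0.97-fold of control on the opposite side. After quantile normalization, which is no such shift, the first 2 values were 1.57 and 1.61, and the dimmer TCP1 probe sets gave 1.48 and 1.30 against control. The ratio of CCT6A to CCT7 was 1.43-fold higher in the treated pool than in the control pool and 1.34-fold higher than in the opposite-side pool, but its other probe set, 201326_at, gave 1.08-fold and 1.27-fold. Set against the median of the 8 subunits on each array, TCP1 was at -0.89 and -0.90 on the treated, -1.36 and -1.38 on the opposite-side and -1.32 and -1.31 on the control arrays. CCT7 was at -0.02 and 0.01 on the treated, 0.23 and 0.19 on the opposite-side and 0.27 and 0.18 on the control arrays. On this scale the treated pool differed from control by 0.42 for TCP1, 0.28 for CCT6A, 0.25 for CCT2 and -0.23 for CCT7, and by 0.01 to 0.09 for the other 4 subunits. The proportion of TCP1 to CCT7 thus differed between the treated pool and the other 2 on each of the 3 TCP1 probe sets, while those of CCT6A and CCT2 depended on the probe set. TCP1 and CCT7 had the highest and the lowest treated minus control difference of the 8, so no other pair could differ more. The values of the 3 TCP1 probe sets also share 1 CCT7 probe set. With 1 probe set a gene the subunits spanned 0.18 in opposite minus control and 0.65 in treated minus control, but over all 12 detected CCT probe sets they spanned 0.60 and 0.65. Amounts of the proteins were not measured.

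**Figure D3:**
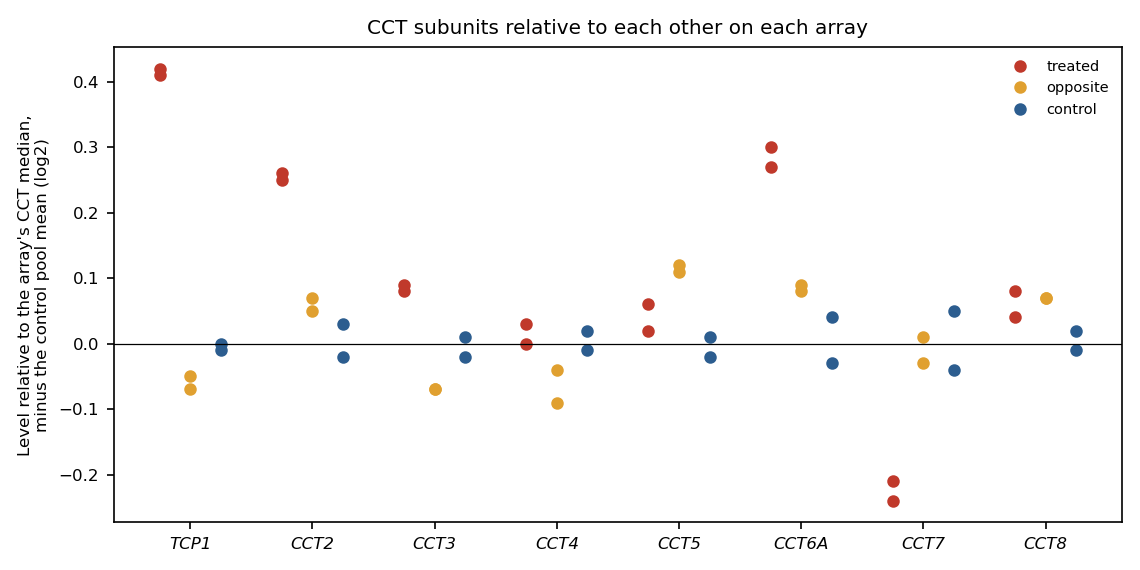
Level of each CCT subunit relative to the median of the 8 subunits on the same array, minus the control pool mean of that value (log2, y axis), for the 2 arrays (points) of the treated, opposite-side and control pools. TCP1, CCT2 and CCT6A lie above 0 in the treated pool and CCT7 below it, while CCT3, CCT4, CCT5 and CCT8 lie within 0.01 to 0.09 of control on average.

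In treated minus opposite 4 of the 8 CCT subunits were higher without overlap, 3 were lower and 1 overlapped, where 38.6% of detected genes were higher and 33.2% lower, and with arrays scaled to a common spike-in median 1 was higher, 5 were lower and 2 overlapped. Of the 8, TCP1 passed the smaller rule as deposited, which 11.1% of genes passed as higher and 6.68% as lower, and none of the 10 genes passed the rule of 1, where 0.28% and 0.0559% did. The median of the 8 was 0.09, beside 0.01 over all detected genes, and -0.10 with the spike-in scaling (-0.22 with the second, where 1 was higher and 7 were lower). The 40 spike-in probe sets, RNAs added in fixed amounts, had medians of 7.67 and 7.67 on the treated, 7.50 and 7.46 on the opposite-side and 7.65 and 7.66 on the control arrays. The median of the differences of single spike-ins was 0.10 in treated minus control, 0.33 in treated minus opposite and -0.18 in opposite minus control. With the spike-in scaling TCP1 was 0.26 higher than on the opposite side, and 0.13 with the second, neither of which passes the smaller rule.

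In opposite minus control 5 of the 8 CCT subunits were higher without overlap of arrays and 3 overlapped, where 34% of detected genes were higher and 42.4% lower. With the spike-in scaling, which moved the median of all detected genes by 0.17, all 8 were higher. None of the 10 genes passed the smaller rule as deposited, where 8.99% of genes passed as higher and 13.5% as lower, or the rule of 1, where 0.237% and 0.167% did, and 3 passed the smaller rule with the spike-in scaling (CCT5 at 0.35, CCT6A at 0.31 and HSPE1 at 0.36), and 5 with the second. The differences of the 8 ran from -0.01 to 0.17 with a median of 0.08, beside -0.02 over all detected genes. The 3 comparisons share pools, and are not independent of each other.

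Taking the pools as one set, 6 of the 10 genes (TCP1, CCT2, CCT3, CCT6A, HSPD1 and HSPE1) stood higher in the treated pool than in both others without overlap, 1 (CCT7) stood lower than in both, and 3 (CCT4, CCT5 and CCT8) did neither. Of 7267 detected genes 21% stood above both other pools and 20.5% below both. With the spike-in scaling CCT2, CCT3 and CCT6A no longer stood above the opposite side, and with the second one TCP1 and HSPD1 were left above both other pools.

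**Figure D4:**
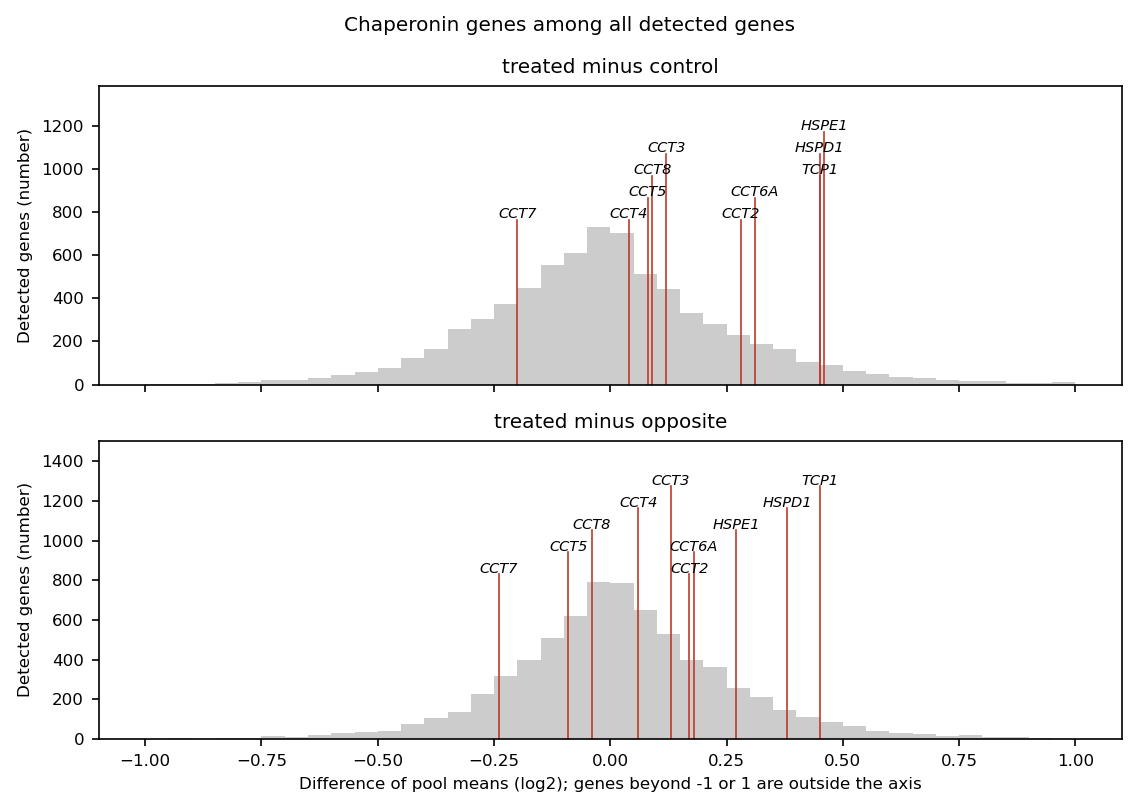
Number of detected genes (y axis, grey bars) by difference of pool means (log2, x axis, bins of 0.05) for treated minus control and treated minus opposite, with red lines at the 10 chaperonin genes. HSPE1, HSPD1 and TCP1 lie in the upper tail of the first comparison, where 5.18% to 5.37% of genes had a larger difference, and CCT7 lies on the lower side of both; with the spike-in scaling the lines and the bars of the second panel move together by -0.19, and with the second scaling those of the panels move by -0.13 and -0.32.

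The 6 heat-inducible genes show the size of the response that the chaperonins are set beside. HSPA6, a strictly inducible HSP70, was at 8.69 and 8.73 on the treated, 5.72 and 5.91 on the opposite-side and 4.88 and 4.82 on the control arrays. HSP90AA1, the inducible cytosolic HSP90, was at 13.19 and 13.24 on the treated, 12.41 and 12.41 on the opposite-side and 12.11 and 12.15 on the control arrays. As deposited all 6 passed the rule of 1 in treated minus control. The differences were 3.86 for HSPA6 (as measured, with a control mean below 5), 1.91 for DNAJB1, 1.89 for HSPH1, 1.86 for BAG3, 1.40 for HSPB1 and 1.09 for HSP90AA1. With the second spike-in scaling HSP90AA1 was at 0.96, short of 1. In treated minus opposite 5 of the 6 passed the rule of 1 as deposited, and HSP90AA1 at 0.80 did not. These 6 were listed with their earlier results known, so their direction is no evidence of its own. Each lay further from control than any of the 10 chaperonin genes, of which the highest was HSPE1 at 0.46.

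The partners and clients of the chaperonins gave no common direction either as deposited. Of 39 detected genes in 7 lists of partners, clients and paralogues, 5 passed the smaller rule as higher in treated minus control and 2 as lower, where 11.5% and 11.4% of detected genes did, and 0 passed the rule of 1, where 0.625% and 0.0972% did. Their median was 0.00. The second spike-in scaling, which moved the median of all detected genes by -0.13, gave 11 past the smaller rule in place of 7. Among the clients 2 were then higher and 1 lower. Prefoldin, the tubulin folding cofactors, the mitochondrial HSP70 partners and the mitochondrial proteases gave 2 each, all lower. Prefoldin hands unfolded actin and tubulin chains to CCT. None of its 5 detected subunits with a probe set of their own passed as deposited on the brightest such probe set. The second spike-in scaling gave 2 lower. As deposited the values ran from -0.25 for PFDN5 and -0.24 for PFDN1 to 0.18 for PFDN4. PFDN5 differed by -0.38 from control on its other detected probe set. PFDN6, on probe sets shared with MIR6834, gave 0.28 and 0.40 on its 2 detected probe sets. Of the phosducin-like cofactors, which bind CCT, TXNDC9 differed by 0.30, just short of the rule, and by 0.43 on its other detected probe set, and PDCL by 0.00. The paralogues CCT6B and CCT8L2 were not detected, nor were BBS10 and BBS12, and MKKS differed by 0.12, and by 0.36 on its other probe set.

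On the brightest probe set of each gene, 3 of the 15 detected CCT clients passed the smaller rule, all of them tubulins and all higher. Of all detected genes 11.5% passed as higher and 11.4% as lower. With the second spike-in scaling 2 clients passed as higher and 1 as lower. As deposited GNB1, which is no tubulin, differed by 0.18 on its brightest probe set and by 0.62 and 0.21 on its other detected ones. ACTB ran from 0.10 to 1.12 over the probe sets naming it alone, highest at its 5′ end. TUBA1A was at 6.82 and 6.76 on the treated, 6.69 and 6.79 on the opposite-side and 6.00 and 5.97 on the control arrays. TUBA4A was at 9.54 and 9.56 on the treated, 9.26 and 9.23 on the opposite-side and 9.04 and 9.03 on the control arrays. TUBB2A was at 8.56 and 8.53 on the treated, 8.51 and 8.58 on the opposite-side and 8.20 and 8.20 on the control arrays. The differences from control were 0.81, 0.51 and 0.34. Between treated and opposite side TUBA1A and TUBB2A differed by 0.05 and 0.00 as deposited, with overlapping arrays, and by -0.14 and -0.19 with the spike-in scaling. TUBA4A was 0.30 higher in the treated pool without overlap, just short of the smaller rule, and 0.11 higher with the spike-in scaling, but -0.02 with the second. The median of the 15 clients was 0.15 in treated minus control, 0.15 in opposite minus control and 0.00 in treated minus opposite as deposited, and 0.13, 0.33 and -0.19 with the spike-in scaling. None of the 5 tubulin folding cofactors passed in any comparison as deposited. With the spike-in scaling 4 of them passed as lower in treated minus opposite and 2 as higher in opposite minus control. The median of all detected genes moved by -0.19 and 0.17 there. All 5 cofactors lay below the opposite side without overlap of arrays as deposited, with a median of -0.14, where 33.2% of detected genes did.

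Values of the other folding and quality control genes of the mitochondrion lay on both sides of control as deposited. HSPA9, the mitochondrial HSP70, was at 8.99 and 9.04 on the treated, 9.01 and 9.01 on the opposite-side and 8.99 and 8.99 on the control arrays, a difference of 0.03 from control. Of its partners, the nucleotide exchange factor GRPEL2 was 0.34 higher than control and the HSP40 protein DNAJA3 0.31 lower (-0.31), while TRAP1, the mitochondrial HSP90, differed by -0.29. DNAJA3 stood lower still on the opposite side, by -0.62 against control. Of the mitochondrial proteases CLPP differed by -0.46 and CLPX, its unfoldase partner, by 0.36. LONP1 (-0.21), AFG3L2 (-0.15) and YME1L1 (-0.06) did not pass on the brightest probe set. AFG3L2 differed by -0.51 and -0.59 from control on its other detected probe sets. Counted together on the brightest probe set of each gene, 2 of 11 detected genes of these lists passed as higher and 2 as lower as deposited. Of all detected genes 11.5% and 11.4% did. With the second spike-in scaling, which moved the median of all detected genes by -0.13, 0 passed as higher and 4 as lower. SPG7, a further protease, was undetected on its own probe set. Its detected ones are shared with another gene and differed from control by -0.45 to -0.13.

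**Figure D5:**
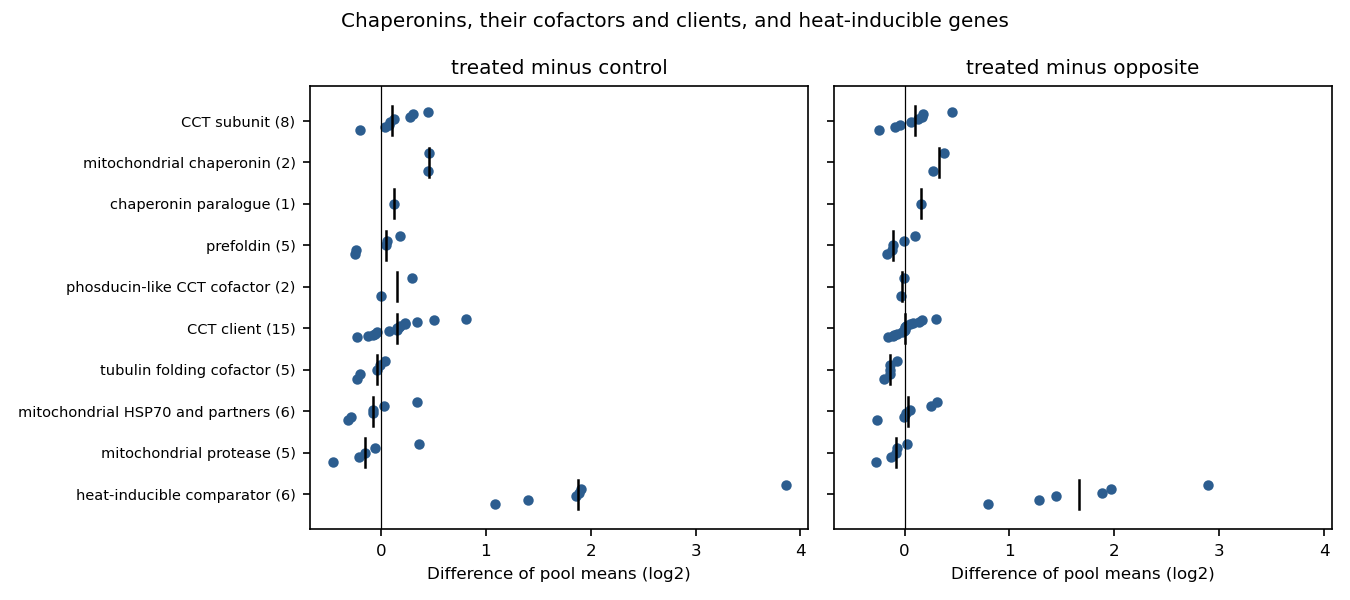
Difference of pool means (log2, x axis) of every detected gene (points) of the chaperonin, cofactor, client and comparator lists (rows, with the number of genes), with the list median as a bar, for treated minus control and treated minus opposite. The 6 heat-inducible genes lie at 1.09 or more above control and the chaperonins at 0.46 or less; with the spike-in scaling all points of the right panel move by -0.19, and with the second scaling those of the panels by -0.13 and -0.32.

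The 5 detected genes whose pool means lay nearest to the average profile of HSPD1 and HSPE1 (Euclidean distance over the 3 pools, each gene centred on its own mean) were RSU1, P4HA2, APPBP2, ODC1 and METAP2, at distances of 0.006 to 0.018. ODC1, the rate-limiting enzyme of polyamine synthesis, for instance averaged 10.45 in the treated, 10.13 in the opposite-side and 9.98 in the control pool. Among 7258 other detected genes 2.36% lay nearer to that profile than TCP1 did, 3.29% than CCT6A, 4.26% than CCT2 and 78.9% than CCT7. With 3 pools such a likeness is a description only.

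Other measures moved between the pools together with these genes. The tissue matched its label in 6 of 7 colon epithelium markers, with EPCAM, KRT8, KRT18, KRT20, CDH1 and VIL1 detected and CDX2 not. Linear signals summed over these 7 were 28701 to 28997 on the treated, 28700 to 28732 on the opposite-side and 25620 to 25674 on the control arrays. Of 7 fibroblast and matrix markers 4 were detected and their linear signals, summed over all 7, were 786 to 800 on the treated, 661 to 677 on the opposite-side and 352 to 390 on the control arrays. Of 7 skeletal muscle markers 4 were detected, with sums of 301 to 314, of 252 and of 241 to 248 on the same arrays. The 4 did not move alike. Between treated and control ACTA1, with a control mean of 3.10, differed by 2.17, MYL11 by 1.60, TNNT3 by 0.06 and TNNT1 by -0.45. CKM lay near the lowest value deposited. None of 4 endothelial markers was detected, with CDH5 and KDR at or near that lowest value, and of 3 measured leukocyte markers only LYZ was, with sums of 3616 to 3665, 3397 to 3488 and 3050 to 3159. Nearly all of the leukocyte sum is LYZ, since PTPRC and ITGAM lay at 3.11 or less on every array. The probe sets are annotated with human genes, whereas the host was a mouse. How strongly they read mouse RNA was not measured, so these marker values do not show how many host cells were present. The GAPDH probe set nearest the 5′ end, a measure of RNA integrity, differed by -0.46 between treated and control and by -0.45 between treated and opposite, and that at its 3′ end by -0.03 in both. For ACTB the 5′ probe set differed by 1.12 between treated and control and by -0.16 between treated and opposite. The part of host tissue and of RNA integrity in the chaperonin differences was not tested, and in pooled tissue fewer cells of a type and less RNA per cell cannot be told apart.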

How the data were processed

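Tumour RNA was measured on 6 one-colour Affymetrix arrays, 2 technical arrays for each of 3 pools. The deposited values are log2 levels, and the submitters' processing notes name GCRMA, a background correction, quantile normalization and probe set summary, with the version not given in the sources used here. No scanner files were used. Precision is limited by the 6 arrays.

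Probe sets took gene names from the platform annotation: 41097 had 1 gene, 1801 several and 11777 none. Each of 19775 genes was read from its brightest probe set on average among those naming no other gene, even where a shared one was brighter, and TCP1, which has none of its own, from a shared one. The genes, lists and rules were chosen with earlier results of these data known. The text names the 10 chaperonin genes, partner genes past 0.3 in treated minus control, the 6 heat-inducible genes and the 5 nearest profiles; other named genes were chosen after their values were seen. Motifs were searched in RefSeq promoter windows of GRCh38.p14; proteins were not analysed here. Alternatives were other floors, minimums, scalings, probe set choices and agreement of arrays, and leaving out each array. Python 3.11.15, numpy 2.4.6, pandas 2.3.3 and matplotlib 3.10.9 did the work.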

Additional observations from a re-analysis of the deposited data

How the results depend on the processing

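The replicate block, here the demand that only same-numbered array pairs agree, left every count and median unchanged, for example 4 chaperonin genes past 0.3 in treated minus control. Same-numbered arrays did not deviate together (correlations of -0.01 to 0.01), so they share only a number. No paired test was made because each group is 1 pool. With a minimum of 0.3 in place of 1, the counts in treated minus control were 4 chaperonin genes, 6 chaperonin probe sets and 7 partner genes in place of 0; in treated minus opposite 2, 4 and 1; and in opposite minus control 0, 1 and 5. With a minimum of 0.5 no chaperonin gene or probe set passed (0) in any comparison, and of the partner genes 2, 0 and 2 did. The spike-in scaling gave, in treated minus opposite, 1 chaperonin gene, 2 probe sets, 11 partner genes and a CCT median of -0.10 (0.09 as deposited), and in opposite minus control 3, 4, 15 and a median of 0.25 (0.08 as deposited). The median of spike-in differences, an alternative chosen after seeing the data, gave CCT medians of -0.02 in treated minus control, -0.22 in treated minus opposite and 0.27 in opposite minus control, 11, 28 and 15 partner genes, and in opposite minus control 5 chaperonin genes and 6 probe sets. Under both spike-in scalings every partner gene past 0.3 in treated minus opposite was lower, and in opposite minus control all but DNAJA3 were higher. With the second, those in treated minus control were mostly lower. Both scalings shift the median of all detected genes the same way. Setting arrays to the same median or quantile normalization left 0 of 1 partner genes past 0.3 in treated minus opposite, and quantile normalization gave a CCT median of 0.08 in treated minus control (0.10 as deposited). With the median over the probe sets of a gene, 2 chaperonin genes passed 0.3 in treated minus control and 0 in treated minus opposite, where the CCT median was 0.01. That median includes undetected probe sets. For HSPD1 it falls on 241716_at, which lies below 5 and so cannot pass. For CCT4, CCT5 and CCT8 it lies between a detected and an undetected probe set. Leaving out _x_at and _s_at probe sets removed every detected probe set of HSPD1, HSPE1, CCT2 and CCT8. CCT2 was left with none, and CCT8 was read from an undetected probe set at 2.38 on every array. In this setting 0 chaperonin genes passed in treated minus control or in treated minus opposite. Of the partner genes 2 passed in treated minus opposite and 3 in opposite minus control. The CCT medians, without CCT2 and with the undetected CCT8 value, were 0.04 in treated minus control and -0.01 in opposite minus control. CCT6A reversed to -0.10 in treated minus control. Leaving out TCP1, also chosen after seeing the data, left 1 chaperonin gene past 0.3 in treated minus opposite. Without single arrays the partner genes past 0.3 in treated minus opposite ranged from 0 (without the second opposite-side array) to 2 (without the first treated or first opposite-side array), the chaperonin genes past 0.3 from 3 to 4 in treated minus control and from 2 to 3 in treated minus opposite, and the CCT median from 0.09 to 0.12 and from 0.06 to 0.13. Beyond the settings that state it, the cause of these changes was not tested. Of 471 values of single chaperonin genes under the alternatives, 28 had the other sign. Array signal limits the 6 undetected probe sets, and the lack of replicate pools limits every difference.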
